A study of Sus scrofa with 12 samples.

Results

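The HOX genes, the homeobox genes of the HOXA, HOXB, HOXC and HOXD clusters, were followed in longissimus dorsi, a long muscle beside the spine, of Laiwu and Yorkshire pigs. All rows whose gene name was HOX followed by A, B, C or D and a paralogue number were taken, which gave 30 of the 23271 genes listed. The clusters contributed 8 genes from HOXA on chromosome 18, 8 from HOXB on chromosome 12, 8 from HOXC on chromosome 5 and 6 from HOXD on chromosome 15 of the pig genome Sscrofa11.1. The choice used names only and no measured value. Other HOX genes were not analysed here. Poly(A) RNA was sequenced in 6 libraries of Laiwu, a Chinese breed known for fat-rich muscle, and 6 of Yorkshire, a lean Western breed, from pigs described as alike in weight. The labels give neither age nor sex nor treatment, name the muscle but no place along it, and do not state that each library came from a separate animal.

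HOX proteins are transcription factors that tell cells where they lie along the axis from head to tail. Genes of a cluster are turned on in the order in which they lie on the chromosome, so that low paralogue numbers act from the hindbrain backwards and high numbers act in the loin, sacrum, tail and distal limb. Cells descended from the embryonic somites and their connective tissue can keep part of this pattern into adult life. The longissimus runs along the back from neck to pelvis and so crosses several HOX domains.

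Libraries held 54961358 to 67285809 counts assigned to genes. At that depth, a gene with no count could still stand at 3 counts, which is 0.0446 to 0.0546 CPM (counts scaled to the library total), for counting error only. As a check of the tissue label, the 8 muscle fibre genes in the table summed to 68579 to 87597 FPKM in Laiwu and to 70252 to 93624 FPKM in Yorkshire. FPKM, the unit used here, scales a gene's reads by its length and by the depth of the library. Of the limb and head position factors, 11 of 21 in the table reached a mean of 0.5 FPKM. The limb factors TBX5, TBX4 and PITX1, named after their values were seen, did not, with TBX5 at a mean of 0.00662 FPKM, TBX4 at 0.00846 FPKM and PITX1 at 0.0495 FPKM over the 12 libraries. These counts come from whole tissue, so fewer cells of a type and less RNA per cell cannot be told apart. The libraries did not form 2 sets by breed in their HOX levels: 6 of them, Laiwu 2 and 5 and Yorkshire 1, 3, 4 and 5, stood apart from the other 6 in several HOX genes. Results that rest on them are given by library.

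Genes in the middle of the clusters were the most abundant, and those at the tail end were close to the limit of detection. Of the 30 genes, 19 had a mean of at least 0.5 FPKM, the minimum for testing, and 13 had at least 1 FPKM. HOXD8 ranked first in 12 of 12 libraries. The HOXC and HOXD genes together gave most of the signal, with HOXC genes making up 38.6% to 55.4% and HOXD genes 35.3% to 46.1% of the summed HOX FPKM of a library. HOXA genes gave 6.48% to 14.0% and HOXB genes 1.81% to 3.93%. By paralogue group, the highest mean was 27.9 FPKM in group 8, 13.3 FPKM in group 9 and 9.27 FPKM in group 10. It was 0.0491 FPKM in group 11, with 2 genes here, and 0.00214 FPKM in group 13, with 1, so few genes cover the tail end.

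**Figure D1:**
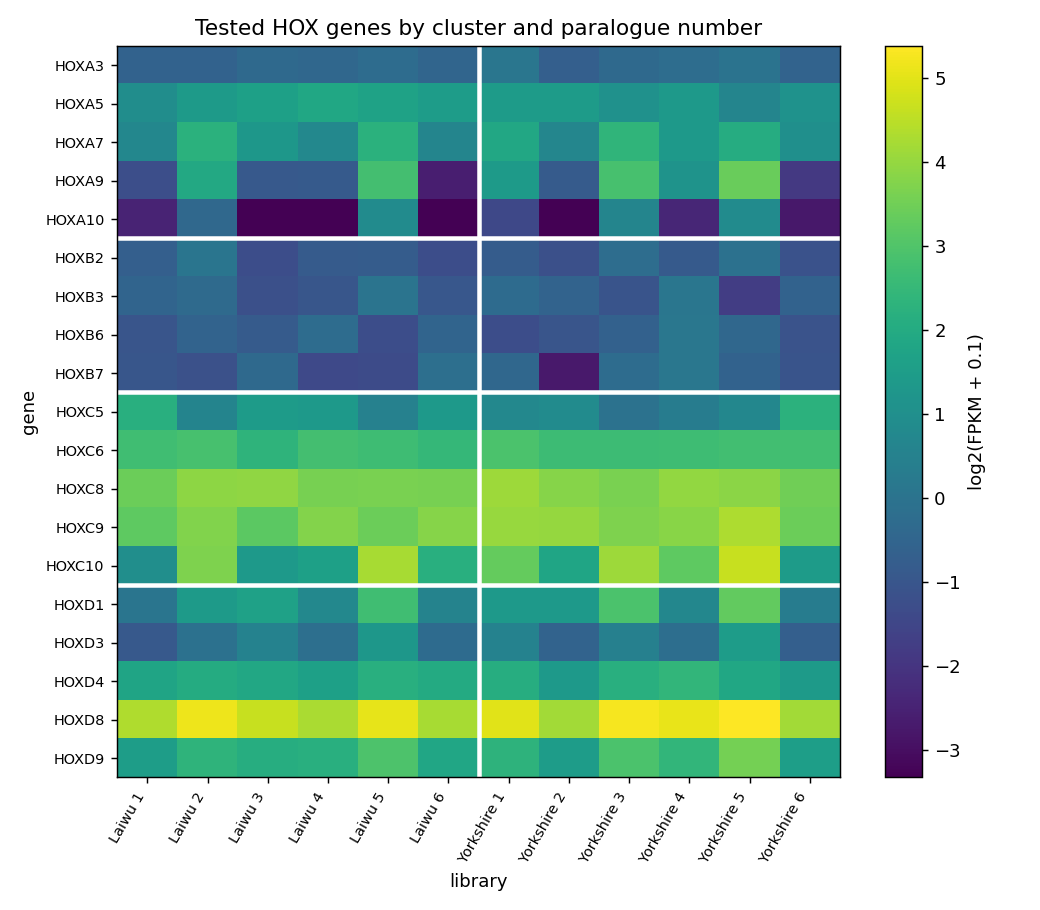
Levels of the 19 tested HOX genes (rows, by cluster and paralogue number; white lines part the clusters) in the 6 Laiwu libraries, left of the vertical line, and the 6 Yorkshire libraries, right of it, as log2(FPKM + 0.1). HOXD8 is the brightest row in all 12 libraries, and HOXA9 and HOXC10 are brighter in Laiwu 2 and 5 and Yorkshire 1, 3, 4 and 5 than in the other 6.

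Among the HOXC genes (chromosome 5, 19151084 to 19268257), HOXC6, HOXC8 and HOXC9, which act in the trunk, were high in every library. HOXC8 (ENSSSCG00000038644; 19222057 to 19225835) ran from 10.6 to 15.1 FPKM with a median of 12.2 in Laiwu and from 11.2 to 17.1 FPKM with a median of 14.3 in Yorkshire. HOXC9 (ENSSSCG00000034474; 19212905 to 19215984) ran from 9.004 to 13.98 FPKM with a median of 11.97 in Laiwu and from 10.6 to 19.99 FPKM with a median of 15.1 in Yorkshire. The breeds overlapped in both genes. HOXC6 (19229594 to 19243652) was the steadiest member, at 4.94 to 7.14 FPKM with a median of 6.46 in Laiwu and 6.10 to 7.46 FPKM with a median of 6.46 in Yorkshire.

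HOXC5, its neighbour towards the head end of the cluster, was lower and more variable. HOXC5 (19245851 to 19248172) ran from 1.33 to 4.43 FPKM with a median of 2.54 in Laiwu and from 0.883 to 4.78 FPKM with a median of 1.56 in Yorkshire. Its highest values, 4.43 FPKM in Laiwu 1 and 4.78 FPKM in Yorkshire 6, were one in each breed. HOXC4, the member of the cluster that acts nearest to the head, stayed between 0.0685 and 0.400 FPKM over the 12 libraries, with 13 to 72 counts. At the other end, HOXC11 had 0 to 17 counts per library, and HOXC13 had 4 counts in Laiwu 4 and 0 in the other 11 libraries.

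HOXC10 (ENSSSCG00000022728; 19197807 to 19202970) varied most within this cluster. In the mouse, the genes of paralogue group 10 mark the loin and hold back rib formation there. Its levels in Laiwu 1 to 6 were 1.87, 12.8, 2.5, 3.00, 18.9 and 4.37 FPKM, against 10.04, 3.37, 17.2, 9.33, 25.1 and 2.65 FPKM in Yorkshire 1 to 6. In both breeds some libraries were high and others low, with no value between 4.37 and 9.33 FPKM, and the highest stood 10.1 times above the lowest in Laiwu and 9.46 times above it in Yorkshire. Each of these values rests on at least 261 counts.

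Among the HOXD genes (chromosome 15, 81917637 to 81990134), HOXD8 was the most abundant HOX gene of the muscle. HOXD8 (ENSSSCG00000040349; 81931010 to 81934053) ran from 18.9 to 35.5 FPKM with a median of 22.5 in Laiwu and from 17.99 to 41.7 FPKM with a median of 33.1 in Yorkshire. HOXD9 (81924142 to 81926274) ran from 2.78 to 7.57 FPKM with a median of 4.30 in Laiwu and from 2.71 to 11.8 FPKM with a median of 5.02 in Yorkshire. The breeds overlapped over most of the range of both genes. RefSeq does not have HOXD4 under that symbol at the place of the deposited row, nor HOXB4. HOXD4 (81952660 to 81955172), which acts from the neck backwards, was steadier, at 2.98 to 4.42 FPKM with a median of 3.80 in Laiwu and 2.54 to 5.24 FPKM with a median of 3.90 in Yorkshire.

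HOXD1, at the head end of its cluster, varied more than HOXD9, at the other end of the tested stretch. HOXD1 (81987769 to 81990134) stood at 0.940, 2.59, 3.07, 1.58, 6.41 and 1.39 FPKM in Laiwu 1 to 6 and at 2.54, 2.46, 7.48, 1.52, 9.74 and 1.15 FPKM in Yorkshire 1 to 6. The highest values were those of Laiwu 5, Yorkshire 3 and Yorkshire 5, the libraries that were also highest in HOXC10. HOXD3 ran from 0.445 to 2.33 FPKM in Laiwu and from 0.520 to 2.74 FPKM in Yorkshire, again highest in Laiwu 5 and Yorkshire 5. HOXD10, next to HOXD9 on the tail side, had 0 to 24 counts per library, in contrast to HOXC10 of the same paralogue group, though its row overlaps the place of HOXD9 in RefSeq.

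Among the HOXA genes on chromosome 18, HOXA5 and HOXA7 were present in every library, while HOXA9 and HOXA10 were near the limit of detection in some. HOXA5 (45421663 to 45432885), which in the mouse patterns the border of neck and chest, ran from 1.83 to 3.55 FPKM with a median of 2.84 in Laiwu and from 1.45 to 2.67 FPKM with a median of 2.29 in Yorkshire. The deposited HOXA5 row spans the place where RefSeq puts HOXA6 on the same assembly, and overlaps the long RefSeq span of HOXA3, so the division of reads between these neighbours is uncertain. HOXA7 (45417203 to 45419101) ran from 1.47 to 4.67 FPKM with a median of 1.96 in Laiwu and from 1.49 to 5.05 FPKM with a median of 3.05 in Yorkshire. HOXA3, which patterns the throat region, was low but even, at 0.565 to 0.753 FPKM with a median of 0.632 in Laiwu and 0.515 to 0.976 FPKM with a median of 0.730 in Yorkshire.

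HOXA9 (ENSSSCG00000028997; 45408375 to 45411509), a gene of the trunk's tail side, varied most of the tested HOX genes by the SD of log2(FPKM + 0.1) within breeds. It stood at 0.329, 3.69, 0.436, 0.448, 6.85 and 0.0678 FPKM in Laiwu 1 to 6, against 2.59, 0.465, 7.08, 2.10, 10.5 and 0.172 FPKM in Yorkshire 1 to 6. The lowest value is 8 counts in Laiwu 6 and the highest 1405 counts in Yorkshire 5. HOXA10 (ENSSSCG00000021204; 45393945 to 45403257), the next gene towards the tail end, stood at 0.0835, 0.669, 0, 0, 1.73 and 0 FPKM in Laiwu 1 to 6 and at 0.270, 0, 1.47, 0.0895, 1.73 and 0.0463 FPKM in Yorkshire 1 to 6. HOXA9 was high in the 6 libraries that were high in HOXC10, and HOXA10 in 5 of them, since its 18 counts in Yorkshire 4 equal those in Laiwu 1. HOXA11, beyond them, had at most 10 counts in a library, and HOXA2, a gene of the hindbrain, had at most 41.

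HOXB genes (chromosome 12, 24797225 to 24880333) were low throughout. HOXB2, HOXB3, HOXB6 and HOXB7 reached the minimum for testing, with means of 0.525, 0.566, 0.529 and 0.517 FPKM over the 12 libraries. HOXB4 averaged 0.289 FPKM, HOXB5 0.118 FPKM, HOXB8 0.0791 FPKM and HOXB9 0.0668 FPKM. HOXB9 had a count in 7 of 12 libraries, while HOXC9 and HOXD9 of the same paralogue group were well above it in every library. RefSeq has HOXB8 and not HOXB9 at the place of this row, so its identity is uncertain. The summed HOXB level was 2.22 to 3.15 FPKM in Laiwu and 1.82 to 3.87 FPKM in Yorkshire.

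Variation between libraries of a breed was larger for the HOX genes than for most genes of this muscle. The SD of log2(FPKM + 0.1) within breeds, pooled over both, had a median of 0.56 over the 19 tested HOX genes and of 0.29 over all 11205 tested genes. It was 2.05 for HOXA9, 1.80 for HOXA10, 1.29 for HOXC10 and 1.08 for HOXD1. Above the 90th percentile of tested genes lay 9 of the 19, HOXA9 and HOXA10 among them. Both stayed under 0.5 FPKM in the 6 libraries of lowest HOXC10 and reached the minimum for testing through the others. A gene that passes in that way has a large SD by that choice, so the count describes the genes that passed. HOXC6 at 0.16, HOXC8 at 0.21 and HOXA3 at 0.24 were below the median of all genes. Low counts add to this SD, and HOXB7, next in the order, had as few as 4 counts in a library. Each breed showed the spread by itself, with an SD of 2.05 among Laiwu and 2.05 among Yorkshire libraries for HOXA9, and of 1.33 and 1.26 for HOXC10.

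**Figure D2:**
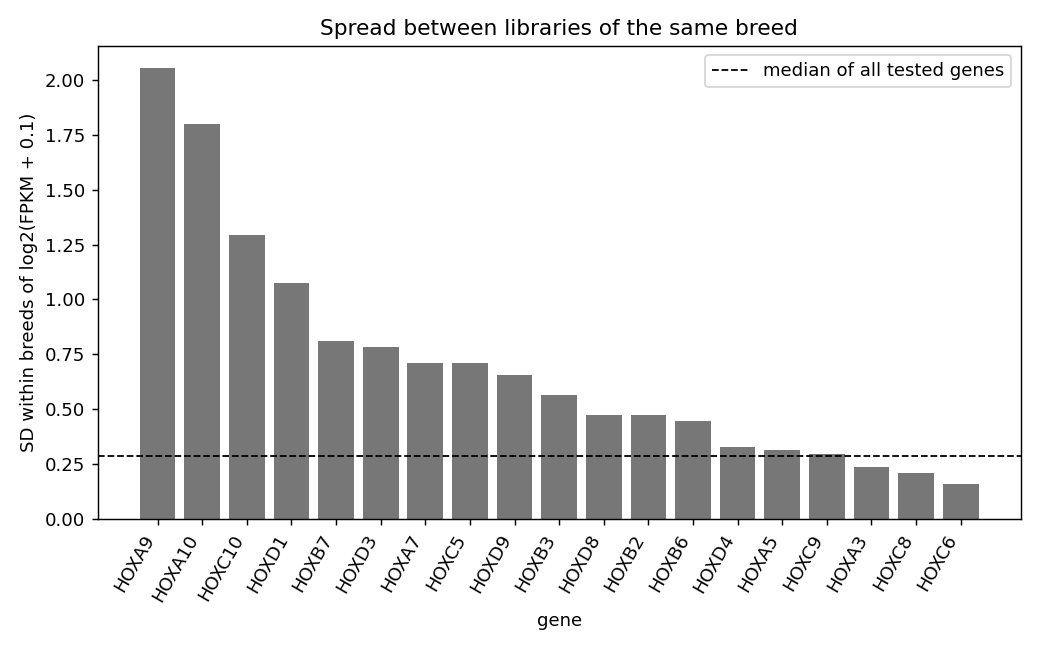
SD of log2(FPKM + 0.1) between libraries of the same breed, pooled over Laiwu and Yorkshire, for the 19 tested HOX genes in descending order, with the median of all 11205 tested genes as a dashed line. HOXA9, HOXA10, HOXC10 and HOXD1 lie above 1, and HOXA3, HOXC8 and HOXC6 lie below the line.

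The same libraries were high in several HOX genes, in both breeds. Ordered by HOXC10, the 6 highest libraries were Yorkshire 5, Laiwu 5, Yorkshire 3, Laiwu 2, Yorkshire 1 and Yorkshire 4, so that 2 were Laiwu and 4 were Yorkshire. These 6 were also the 6 highest for HOXA7, HOXA9, HOXA10, HOXD8 and HOXD9, which is 5 of the 18 other tested HOX genes. Among all other tested genes the same was true of 161 of 11204, or 1.44%. At least 5 of the 6 were shared by 10 of the 18, against 12.4% of all genes, the further 5 being HOXA3, HOXB2, HOXD1, HOXD3 and HOXD4. HOXA9 and HOXA10 stayed under 0.5 FPKM in each of the other 6 libraries and reached the minimum for testing through these 6. HOXB2, with a mean of 0.525 FPKM over the 12, was at 0.319 to 0.516 FPKM in the other 6 and passed likewise through the higher ones. The counts thus describe the genes that passed and support nothing. This order was chosen after the values were seen, and genes of a cluster are not independent of each other. The summed FPKM of all 30 HOX genes was 106.1 to 159.8 in these 6 libraries and 67.7 to 80.8 in the other 6.

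The gap between the lowest of these 6 libraries and the highest of the other 6, as a ratio, was 4.51 for HOXA9 and at most 1.28 for the 4 others. HOXA9 was at 2.10 to 10.5 FPKM in those 6 libraries and at 0.0678 to 0.465 FPKM in the other 6. HOXD8 was at 32.0 to 41.7 FPKM and 17.99 to 24.9 FPKM, and HOXD9 at 4.83 to 11.8 FPKM and 2.71 to 4.36 FPKM. For HOXA7 the gap was narrow, at 2.496 to 5.05 FPKM and 1.47 to 2.36 FPKM, and for HOXA10 Yorkshire 4 at 0.0895 FPKM lay just above Laiwu 1 at 0.0835 FPKM.

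HOXC5 ran the other way and shared none of the 6, which was true of 0.589% of all other tested genes. HOXC5 was at 0.883 to 1.59 FPKM in those 6 libraries and at 1.72 to 4.78 FPKM in the other 6. Its neighbours on the tail side, HOXC6, HOXC8 and HOXC9, shared 3, 4 and 3 of the 6, so within one cluster the 2 ends of the expressed stretch, HOXC5 and HOXC10, were opposed while the genes between them did not separate these libraries. HOXA5, also on the head side of its cluster, shared 2. Other genes on the head side went with HOXC10 instead: HOXA3, HOXB2, HOXD1, HOXD3 and HOXD4 shared 5 each, and HOXB3 shared 4.

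**Figure D3:**
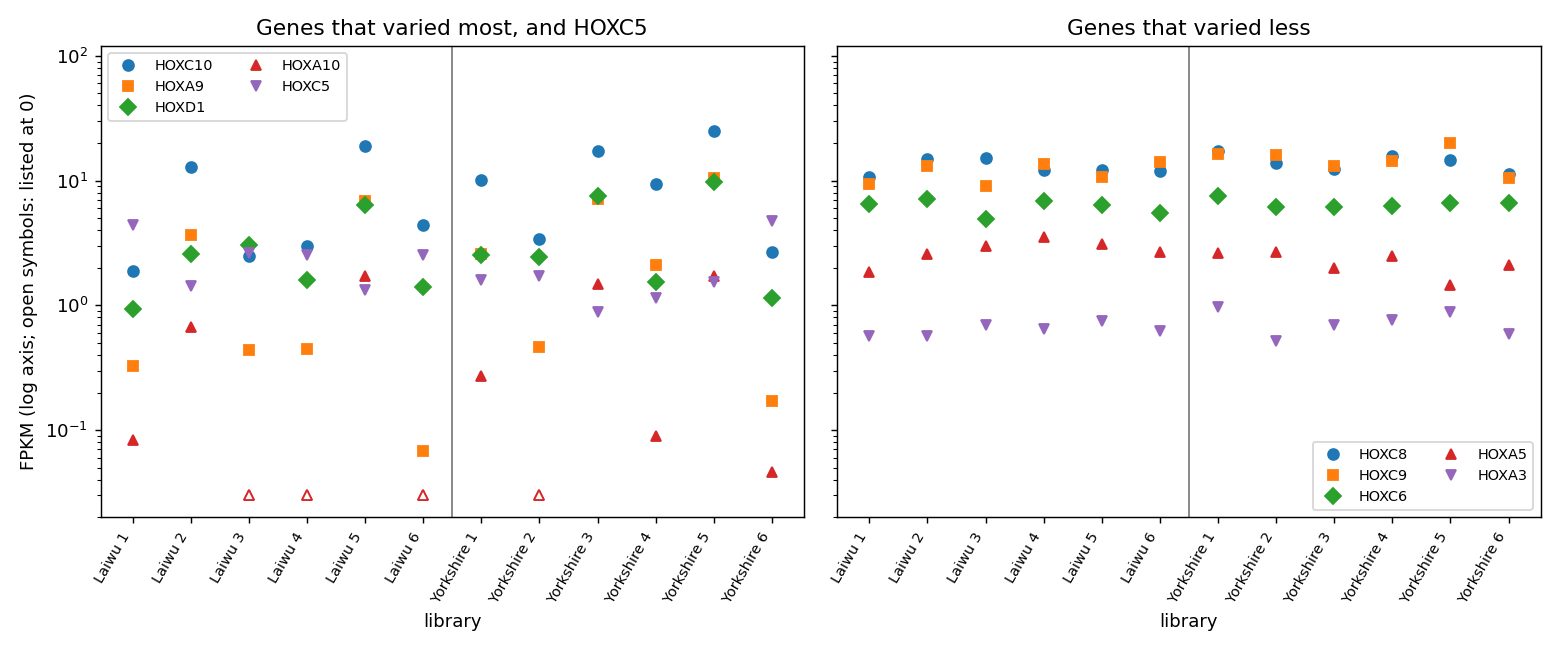
FPKM on a log axis in each of the 6 Laiwu libraries, left of the vertical line in each panel, and the 6 Yorkshire libraries, right of it; open symbols are values listed at 0. On the left, HOXC10 and HOXA9 are high in Laiwu 2 and 5 and Yorkshire 1, 3, 4 and 5 while HOXC5 is low there, HOXA10 is high in the same libraries but Yorkshire 4, and on the right HOXC8, HOXC9, HOXC6, HOXA5 and HOXA3 vary less. HOXD1, also on the left, is highest in Laiwu 5 and Yorkshire 3 and 5.

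Since the libraries fall into separate sets in HOXC10, no correlation over all 12 is given. Within the 6 libraries of highest HOXC10, its log2(FPKM + 0.1) followed that of HOXA9 at Pearson's r = 0.99 (exact permutation p = 0.00278, adjusted 0.1) and Spearman's rho = 0.94 (exact permutation p = 0.0167, adjusted 0.2), two-sided, and r was 0.98 without the 2 libraries farthest from the median of HOXC10. HOXA10, HOXD1 and HOXD9 had r = 0.94, 0.96 and 0.94 there, with exact permutation p of 0.00833, 0.0111 and 0.00972, each 0.1 after adjustment, and rho = 0.94, 0.94 and 0.83. HOXD3 had r = 0.83 (exact permutation p = 0.0458, adjusted 0.275). In HOXC10, HOXA9, HOXA10, HOXD1 and HOXD9, Laiwu 5 and Yorkshire 3 and 5 stood above Laiwu 2 and Yorkshire 1 and 4. HOXA9 was at 6.85 to 10.5 FPKM in the former and at 2.10 to 3.69 FPKM in the latter. The r of these genes is thus partly a step between further sets, as it would be over all 12. Within the other 6 libraries r was -0.48 for HOXA9 (exact permutation p = 0.356, adjusted 0.692), and it was -0.75, 0.26 and 0.15 for HOXA10, HOXD1 and HOXD9. HOXC9 had r = 0.80 there (exact permutation p = 0.0389, adjusted 0.275). Correlations were computed for 18 genes in both sets, 36 in all. Of these, 6 had an unadjusted p under 0.05 by r and 0 passed after adjustment. The smallest exact permutation p that 6 libraries allow is 0.00278. Both sets were chosen by HOXC10 itself after its values were seen, and the permutations exchanged libraries of both breeds freely. HOXA9 and HOXA10 also reached the minimum for testing through the higher set, so these p-values support nothing.

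Other genes shared this order, and their part in the HOX result was not tested. The following were named after their values were seen, apart from the fixed lists. LBX1, a homeobox gene of muscle precursors, was at 6.20 to 10.4 FPKM in the 6 libraries of highest HOXC10 and at 3.67 to 5.77 FPKM in the other 6. TBX1, a T-box gene known from head muscle, was at 3.15 to 4.46 and 1.76 to 2.58 FPKM, and both belong to a fixed list of limb and head position factors of which 11 were tested. The Polycomb genes PCGF2 and PHC2, members of the complexes that keep HOX genes silent, were also highest in these 6, at 10.1 to 14.2 FPKM against 7.69 to 9.88 FPKM for PCGF2. They were 2 of 24 tested regulators of that kind. Over all tested genes other than HOXC10, 1.44% shared all 6 libraries with it. Since the genes were named for sharing them, neither count carries weight.

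Several genes of slow fibres were highest in the same 6 libraries. Apart from MYH7, of the fixed muscle fibre list, they were chosen after their values were seen, so their number carries no weight. TNNI1, the slow troponin I, was at 109.6 to 195.1 FPKM in the 6 libraries of highest HOXC10 and at 29.3 to 103.8 FPKM in the other 6. CASQ2, a calcium-binding protein of slow and cardiac muscle, was at 6.69 to 18.6 and 1.82 to 3.66 FPKM. MYH7, the slow myosin heavy chain, which was not chosen by its values, did not separate the libraries. It shared 5 of the 6, at 977.6 to 1321 and 275.6 to 1141 FPKM. Of the fast myosin heavy chains on the same fixed list, MYH4 shared 4 and MYH1 shared 1.

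A pair of further genes, chosen after their values were seen, stood high in different libraries among these 6. HSPA6, a heat shock gene, was at 48.0, 35.9 and 37.8 FPKM in Laiwu 2, Yorkshire 1 and Yorkshire 4 and at 0.674 to 5.75 FPKM in the other 9 libraries. GADD45A, a gene induced by cell stress, was at 27.3, 63.0 and 39.4 FPKM in Laiwu 5, Yorkshire 3 and Yorkshire 5 and at 4.18 to 7.65 FPKM in the other 9. These last 3 libraries were the ones of highest HOXC10, HOXA9, HOXA10 and HOXD1.

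Markers of other cells and depth followed the order less closely, and fat and connective tissue markers tended to run against it. By summed level, the 6 libraries of highest HOXC10 held 4 of the 6 highest for satellite cell markers (6 listed genes), 4 for endothelial (7 of 8 in the table), 4 for smooth muscle and pericyte (8), 3 for macrophage (8), 3 for lymphocyte (6), 2 for Schwann cell and nerve (7 of 8), 2 for erythroid (3 of 6), 2 for fibro-adipogenic (9) and 1 for adipocyte markers (8). For total counts it was 3. Tendon markers (6) shared 0, but their sums nearly met, at 4.29 to 5.928 FPKM in those 6 libraries and 5.929 to 16.7 FPKM in the other 6. TPPP3 and FMOD, which carried these sums, each shared 2 of the 6, so neither gene separated the libraries. Adipocyte markers summed to 66.8 to 145.1 FPKM in those 6 libraries and to 108.5 to 249.3 FPKM in the other 6, and fibro-adipogenic markers to 289.1 to 508.3 FPKM and 412.6 to 725.0 FPKM. COMP and SCX, defining genes of tendon, averaged 0.00832 and 0.0858 FPKM. DPT, a matrix gene of the fibro-adipogenic list, was also lower, at 2.92 to 5.83 and 6.64 to 13.3 FPKM.

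No HOX gene passed the test between Laiwu and Yorkshire muscle, given the spread within breeds. By the quasi-likelihood test of edgeR, with p adjusted after Benjamini and Hochberg, 0 of 19 tested HOX genes passed an adjusted p of 0.05, as did 0 of all 11205 tested genes (0%). DESeq2 called 0 HOX genes and 0.00893% of all genes, and limma on log2(FPKM + 1) called 0 of both. At an unadjusted p under 0.05 stood 1 HOX gene, HOXC9, by each of the 3 tools. By edgeR 4.44% of all tested genes did so, and 2.3% with a lower level in Laiwu, the side of HOXC9. The breeds did not overlap for 0 of the 19, against 0.178% of all tested genes. Adipocyte markers summed to 79.4 to 249.3 FPKM among Laiwu libraries and to 66.8 to 129.7 FPKM among Yorkshire libraries, and their part in the HOX levels was not tested.

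HOXC9 had a mean of 11.6 ± 2.21 FPKM among Laiwu libraries and 15.0 ± 3.22 FPKM among Yorkshire libraries (SD, n = 6 each). Its log2 fold change was -0.40 ± 0.17 (SE), with an adjusted p of 0.912 by edgeR. Of the Laiwu libraries 2 of 6, and of the Yorkshire libraries 4 of 6, lay above the median of all 12. HOXA5, HOXC8 and HOXA3, next in order of p, had log2 fold changes of 0.30 ± 0.17, -0.17 ± 0.12 and -0.23 ± 0.19, all at an adjusted p of 0.912 by edgeR. HOXA5 had a mean of 2.79 ± 0.580 FPKM among Laiwu libraries and 2.22 ± 0.467 FPKM among Yorkshire libraries.

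The genes with the largest fitted differences were those that varied most within the breeds. HOXA9 had a mean of 1.97 ± 2.75 FPKM among Laiwu libraries and 3.82 ± 4.11 FPKM among Yorkshire libraries, and its log2 fold change was -0.96 ± 1.10 (SE). HOXC10 averaged 7.25 ± 7.01 and 11.3 ± 8.59 FPKM, a log2 fold change of -0.65 ± 0.68, and HOXD1 2.67 ± 1.997 and 4.15 ± 3.57 FPKM, one of -0.66 ± 0.59. HOXA10, listed at 0 in 3 Laiwu libraries and 1 Yorkshire library, had a log2 fold change of -0.53 ± 1.46. Of the 6 libraries of highest HOXC10, 2 were Laiwu and 4 Yorkshire, and the part of that uneven split in these differences was not tested.

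**Figure D4:**
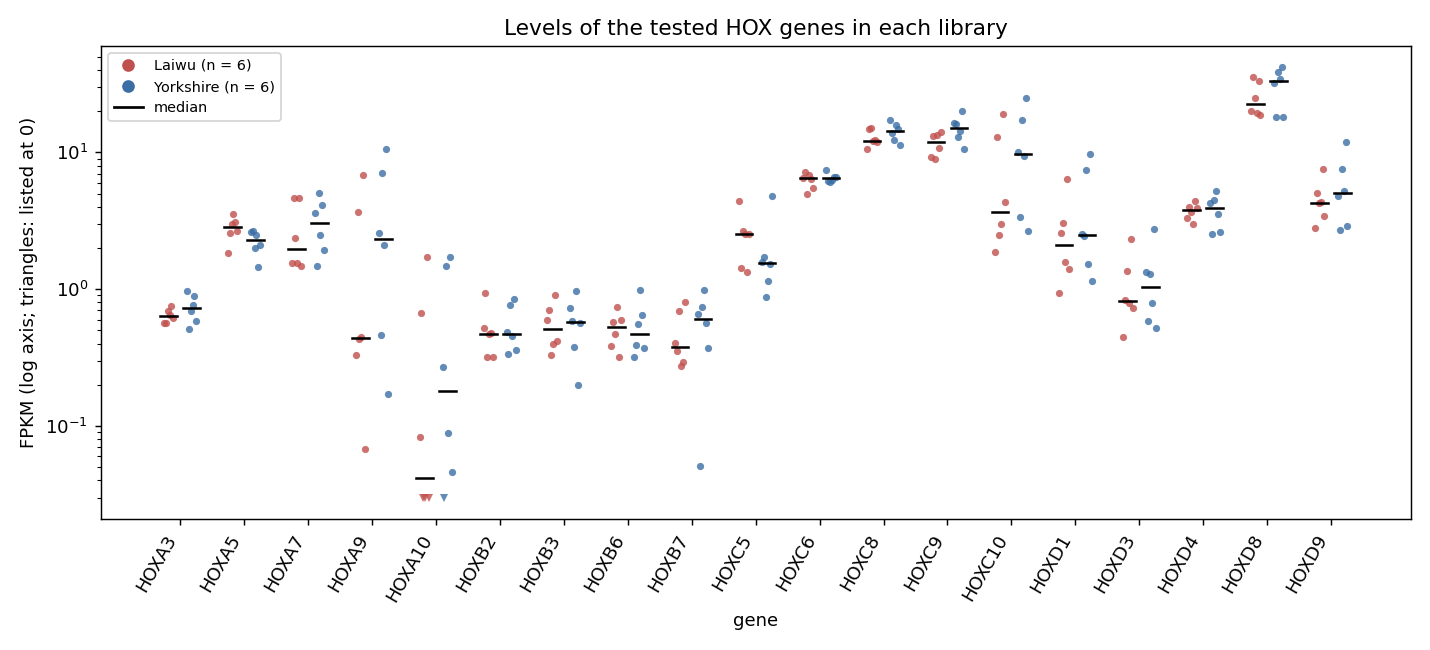
FPKM of the 19 tested HOX genes on a log axis, with Laiwu libraries left of Yorkshire libraries for each gene (6 points each; bars are medians, triangles are values listed at 0). The breeds overlap for every gene plotted. The widest ranges within each breed are those of HOXA9 and HOXA10, followed by HOXC10 in Laiwu and by HOXB7, which is low in Yorkshire 2, in Yorkshire.

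Over the 19 tested genes, 2 fitted log2 fold changes lay above 0, those of HOXA5 and HOXC5, and 17 below, where 50.3% of all tested genes lay below. Their median was -0.20, beside -0.0013 over all tested genes. Since the members share their order of libraries, they are not 19 separate observations. The standard errors ran from 0.12 for HOXC8 to 1.46 for HOXA10, with a median of 0.35 against 0.16 for all tested genes. HOXD8 had a log2 fold change of -0.27 ± 0.23, HOXD9 -0.37 ± 0.35, HOXA7 -0.20 ± 0.37, HOXC6 -0.09 ± 0.12 and HOXC5 0.31 ± 0.42. These sizes hang on single libraries: HOXC5 was at 0.038 without Laiwu 1 and 0.83 without Yorkshire 6, HOXA7 at -0.43 without Laiwu 2 and -0.065 without Yorkshire 3, and HOXD1 at -1.13 without Laiwu 5 and -0.15 without Yorkshire 5. The adjusted p by edgeR ran from 0.912 to 0.993 over the 19.

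**Figure D5:**
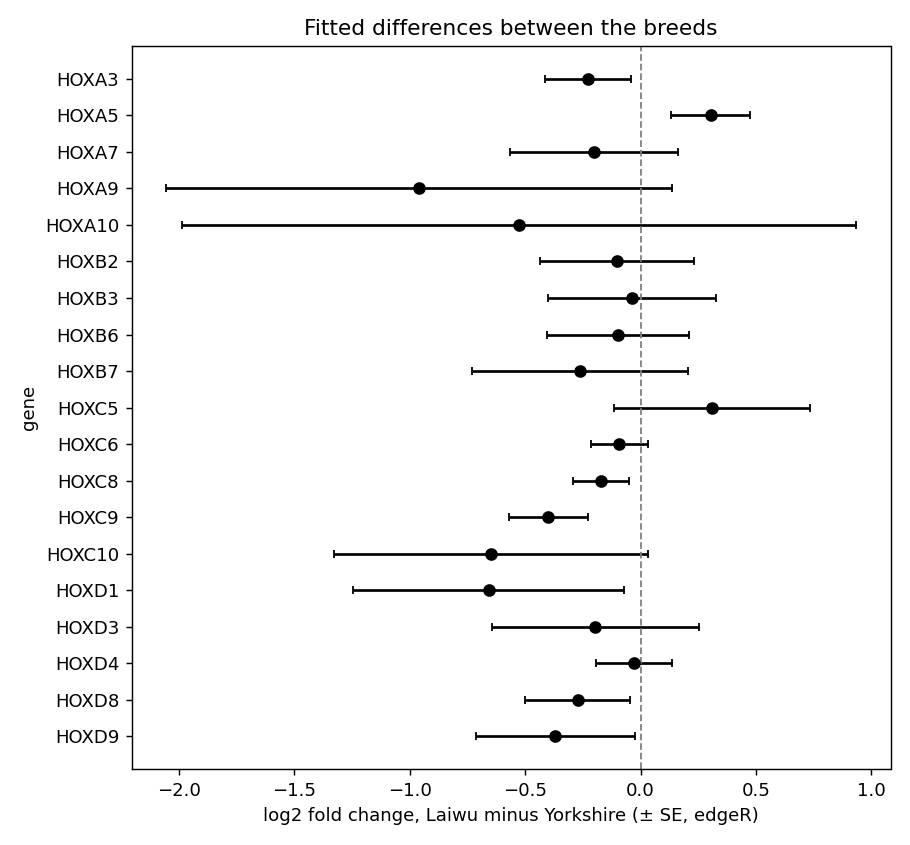
Fitted log2 fold change, Laiwu minus Yorkshire, of the 19 tested HOX genes with its standard error by edgeR. HOXA5 and HOXC5 lie above 0 and the others below, and the error bars of HOXA9, HOXA10, HOXC10 and HOXD1 are the widest.

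The 11 HOX genes below the minimum of 0.5 FPKM had no place in that fit. With edgeR's own filter on counts, 23 HOX genes could be fitted among 15068 genes, and 0 of them were called. HOXB5 then had the next smallest p after HOXC9, at an adjusted p of 0.974 by edgeR, and its log2 fold change was -1.27 ± 0.57 (SE). Its mean was 0.0675 ± 0.0453 FPKM among Laiwu libraries and 0.168 ± 0.0933 FPKM among Yorkshire libraries. It rests on 4 to 16 counts per library in Laiwu and 10 to 42 in Yorkshire. HOXB4, HOXC4 and HOXA2 had log2 fold changes of -0.27 ± 0.41, 0.17 ± 0.44 and -0.59 ± 0.88 in that fit.

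None of the tested partners and regulators of HOX genes was called between the breeds by edgeR, nor was any of all 11205 tested genes. Over all tested genes, 50.3% of the fitted log2 fold changes lay below 0. Of the TALE homeobox proteins, which bind DNA together with HOX proteins, 8 of 10 in the table were tested, 2 of them above 0 and 6 below, with a median log2 fold change of -0.09. PBX2 stood at 7.11 ± 0.891 FPKM among Laiwu libraries and 7.58 ± 0.640 FPKM among Yorkshire libraries, and PKNOX2 6.82 ± 1.04 and 7.09 ± 0.934 FPKM. Of the Polycomb and Trithorax regulators, which keep HOX genes off or on, 24 of 27 were tested, 15 above 0 and 9 below, with a median of 0.04. DOT1L, a histone methyltransferase, was at 15.8 ± 2.93 and 18.1 ± 3.50 FPKM, and BMI1, a Polycomb subunit, at 16.9 ± 1.51 and 15.0 ± 1.78 FPKM.

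Of the signals and receptors that set the axis, retinoic acid receptors and the GDF11 pathway among them, 10 of 15 were tested, with 4 above 0, 6 below and a median of -0.03. RXRA and RXRB, partners of the retinoic acid receptors, had the highest means. RXRA stood at 42.2 ± 4.79 FPKM among Laiwu libraries and 43.0 ± 3.63 FPKM among Yorkshire libraries, and RXRB at 4.85 ± 0.826 and 4.83 ± 0.681 FPKM. Of the limb and head position factors 11 of 21 were tested, with 4 above 0, 7 below and a median of -0.05. Their highest members were LBX1, at 5.60 ± 1.68 and 7.14 ± 2.01 FPKM, and ZIC1, a zinc finger gene of the back, at 6.17 ± 1.14 and 6.54 ± 0.912 FPKM. MTX2 and SKAP2, which flank the HOXD and HOXA clusters, were the only 2 tested of the 5 in the list of RNAs of and beside the clusters, at 11.8 ± 0.933 and 12.8 ± 2.48 FPKM for MTX2 and 1.84 ± 0.432 and 1.80 ± 0.566 FPKM for SKAP2.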

How the data were processed

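Per the labels and the series' design text, poly(A) RNA of longissimus dorsi was sequenced on a NovaSeq, and the authors aligned reads with HISAT2 2.2.1 to Sscrofa11.1. Cutadapt 1.9, FastQC, DESeq2, edgeR and StringTie 1.3.4d are also named, per the submitters' processing notes, with no role stated. The table deposited by the authors holds raw counts and FPKM values per gene and library, per the file headers. The sources used here give no annotation release, strand setting or treatment of reads shared by similar genes, so the division of reads in conserved homeoboxes is uncertain.

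Testing covered the 11205 genes whose mean reached 0.5 FPKM (12066 were left out), with edgeR 4.0.16 (TMM, robust quasi-likelihood, Laiwu minus Yorkshire, no covariate, Benjamini-Hochberg adjusted p under 0.05), which was also tested on simulated data. Alternatives used limma 3.58.1, DESeq2 1.42.0 (no adjusted p for 10 genes) and R 4.3.3. Python 3.11.15 was used for levels and figures. Correlations were tested by exact permutation. Members, gene lists and tests were chosen with earlier results of these data known. Genes were named by rule: the HOX genes, 1 of which is not reported here by itself, with values by library, or their lowest, median and highest, for the 12 of highest mean FPKM and the 4 of smallest p (HOXA10 was added after its values were seen), and 2 genes of highest mean per related list; others are said to be chosen after their values were seen. Because separate animals are not stated, a p-value here reflects only how these libraries vary, which may be technical. Promoter and protein sequences were not used here.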

Additional observations from a re-analysis of the deposited data

Results flagged for a closer look

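Within a breed, 1 library stood far from the other 5 in 3 of the 38 sets of 6 values looked at (19 tested HOX genes in 2 breeds), where chance alone gives about 1 in 20. HOXB2 was at 0.939 FPKM in Laiwu 2, and the next Laiwu value was 0.516 FPKM. HOXC5 was at 4.78 FPKM in Yorkshire 6, and the next Yorkshire value was 1.72 FPKM. HOXD3 was at 2.74 FPKM in Yorkshire 5, and the next Yorkshire value was 1.34 FPKM. No cause was tested for any of the 3.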

How the results depend on the processing

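Over 22 alternatives, 0 HOX genes were called under any, and the lowest adjusted p of a HOX gene was 0.499. Of all tested genes, DESeq2 called 1 and the others 0. HOX genes with a fitted log2 fold change above 0 numbered 2 of 19 in the main setting and 4 by limma on log2(FPKM + 0.1). The fit with no filter on low values took all 30 HOX genes, and 7 lay above 0. Without 1 library it was 2 to 4, over the genes that then reached the minimum. With the replicate block 2 lay above 0 and 0 were called, while HOXA10 stood at -1.63 (main -0.53) and HOXA9 at -1.57 (main -0.96). Same-numbered libraries did not vary together (correlations of -0.279 to 0.317, 2 of 12 libraries closest to their own number), so the numbers give no pairing. At least 0.5 FPKM in every library was reached by 12 HOX genes, against 19 by the mean. Of 402 refitted fold changes 386 kept their sign, and 13 of 19 genes kept it throughout. Without 1 library, HOXB2 ran from -0.19 to 0.0056, HOXB3 from -0.22 to 0.16, HOXB6 from -0.24 to 0.0095, HOXD3 from -0.57 to 0.27, HOXD4 from -0.10 to 0.076 and HOXD9 from -0.57 to 0.0063. By limma on log2(FPKM + 0.1), HOXB3 was at 0.023 and HOXD4 at 0.017, and HOXD4 was at 0.0079 on log2(FPKM + 1); the cause was not tested. Leaving out Laiwu 5 put HOXA9 at -1.93 and HOXC10 at -1.20, and leaving out Yorkshire 5 put them at -0.26 and -0.19. Rescaling to TPM changed 0 ranks of HOX genes. Depth limits HOXA11, HOXC11, HOXC13 and HOXD10, which had at most 24 counts in a library.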

Other observations

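Rows inside the clusters that carry no HOX name were read as well. The row ENSSSCG00000016704 (chromosome 18, 45443208 to 45445631), between HOXA5 and HOXA3, lies where RefSeq puts HOXA4 on the same assembly, within the longer RefSeq span of HOXA3. It ran from 0.849 to 3.45 FPKM over the 12 libraries, with a mean of 2.23 FPKM, and shared 3 of the 6 libraries of highest HOXC10. The long noncoding RNA ENSSSCG00000044335 (chromosome 5, 19206548 to 19209202), on the strand opposite to HOXC10 and HOXC9 and between them, was at 1.65 to 2.87 FPKM in the 6 libraries of highest HOXC10 and at 0.554 to 1.23 FPKM in the other 6. On the strand of the HOXC genes, within the RefSeq span of HOXC9, ENSSSCG00000053804 (19209550 to 19212766) was at 0.657 to 0.996 and 0.160 to 0.677 FPKM and shared 5 of the 6. These rows were chosen after their values were seen, and no explanation was tested.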
